A study of Mus musculus with 8 samples.

Results

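The class I phosphoinositide 3-kinase (PI3K) family is described here by the transcripts of its 9 subunit genes. They comprise 4 catalytic genes, Pik3ca, Pik3cb, Pik3cd and Pik3cg, and 5 regulatory genes, Pik3r1, Pik3r2, Pik3r3, Pik3r5 and Pik3r6. The genes were taken by symbol from the platform annotation, 9 of 19505 genes named in the table, and each had 1 row. The RNA came from mouse leukaemia stem cells of the granulocyte-macrophage progenitor (GMP) type, gated on GFP, taken from the marrow of transplanted mice and carrying the MLL-AF9 fusion oncogene (MLLAF9 in the title). The 3 KO arrays were of genotype Pik3ca-/- and the 5 WT arrays of genotype WT. Both groups share the fusion, the GFP gate and the transplantation. The labels give no sex, age, strain or Cre driver and do not say which exons of Pik3ca were removed. Whether replicate arrays stand for different animals or transplants is not stated either. The p-values then measure only the spread between these samples, which may be technical.

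Class I PI3K phosphorylates the membrane lipid PIP2 to PIP3, which recruits kinases such as AKT and thereby passes on signals for growth and survival. The catalytic subunits p110-alpha, p110-beta and p110-delta, from Pik3ca, Pik3cb and Pik3cd, bind regulatory subunits of the p85 kind (Pik3r1, Pik3r2, Pik3r3), which stabilise them and dock them on phosphorylated receptors. The catalytic subunit p110-gamma, from Pik3cg, binds instead the adaptors p101 (Pik3r5) or p84 (Pik3r6) and is activated by G protein beta-gamma dimers and RAS. The p110-delta and p110-gamma subunits are known mainly from blood cells, whereas p110-alpha and p110-beta are made in most tissues.

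All values are the deposited values, read as log2 from their range of 1.89 to 18.6. The sorted population was checked by its markers: 10 of 10 GMP and primary granule markers, among them Mpo, Elane and Kit, lay above the array median on all 8 arrays. Markers of maturing neutrophils were above it on all arrays for 5 of 6, megakaryocyte and platelet markers for 3 of 6, and mast cell and basophil markers for 3 of 6. For B cells, T and NK cells and erythroid cells this held for 1 of 5, 1 of 5 and 0 of 3. The share of all genes above the array median on all 8 arrays was not counted. On 3 or more arrays, 9920 of the 19505 named genes exceeded it, so these counts do not single out GMP cells. The array medians lay between 5.26 and 5.51. Of the GMP markers, Cd34 was close to them on KO array 1, at 5.63, and was 7.81 and 7.42 on KO arrays 2 and 3. On WT arrays 1 to 5 it was 9.49, 7.24, 10.94, 9.08 and 8.01. The megakaryocyte list averaged 5.75 to 9.72 on WT arrays and 5.89 to 6.25 on KO arrays. WT array 3 stood apart from the other 7 arrays, with a mean correlation to the others of 0.921 over 9920 tested genes, against 0.968 to 0.972. The differences between KO and WT are therefore given with and without that array.

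The catalytic gene deleted in the KO cells still gave signal on every KO array. Pik3ca was 8.73, 9.31 and 9.40 on KO arrays 1 to 3 and 9.48, 9.57, 8.41, 9.51 and 9.58 on WT arrays 1 to 5. Those values placed its row between the 71.5th and 75.8th percentile of the 22206 transcript rows of each array. In log2 value, WT array 3 was the lowest of all 8 arrays, and KO array 1 the next lowest. The groups overlapped through WT array 3 alone, and the other 4 WT arrays lay within 9.48 to 9.58. The KO mean was 9.15 ± 0.36 (SD, n = 3), and the WT mean without array 3 was 9.54 ± 0.05 (SD, n = 4). The difference was then -0.39 (SE 0.20, 95% interval -0.84 to 0.06), a KO level of 0.763 times WT with an interval from 0.557 to 1.04. The exact two-sided permutation p was 0.0286, the smallest possible with 35 splits, while limma gave an adjusted p of 0.989 over 9920 genes. With all 8 arrays the difference was -0.16 (SE 0.32, interval -0.89 to 0.56), with an exact permutation p of 0.661 over 56 splits. Pik3ca differed by -0.18 without both KO array 1 and WT array 3, and by 0.04 without KO array 1 alone. The deleted exons are not named, and a row read outside them would not report the deletion, so Pik3ca is no check of the genotype labels.

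**Figure D1:**
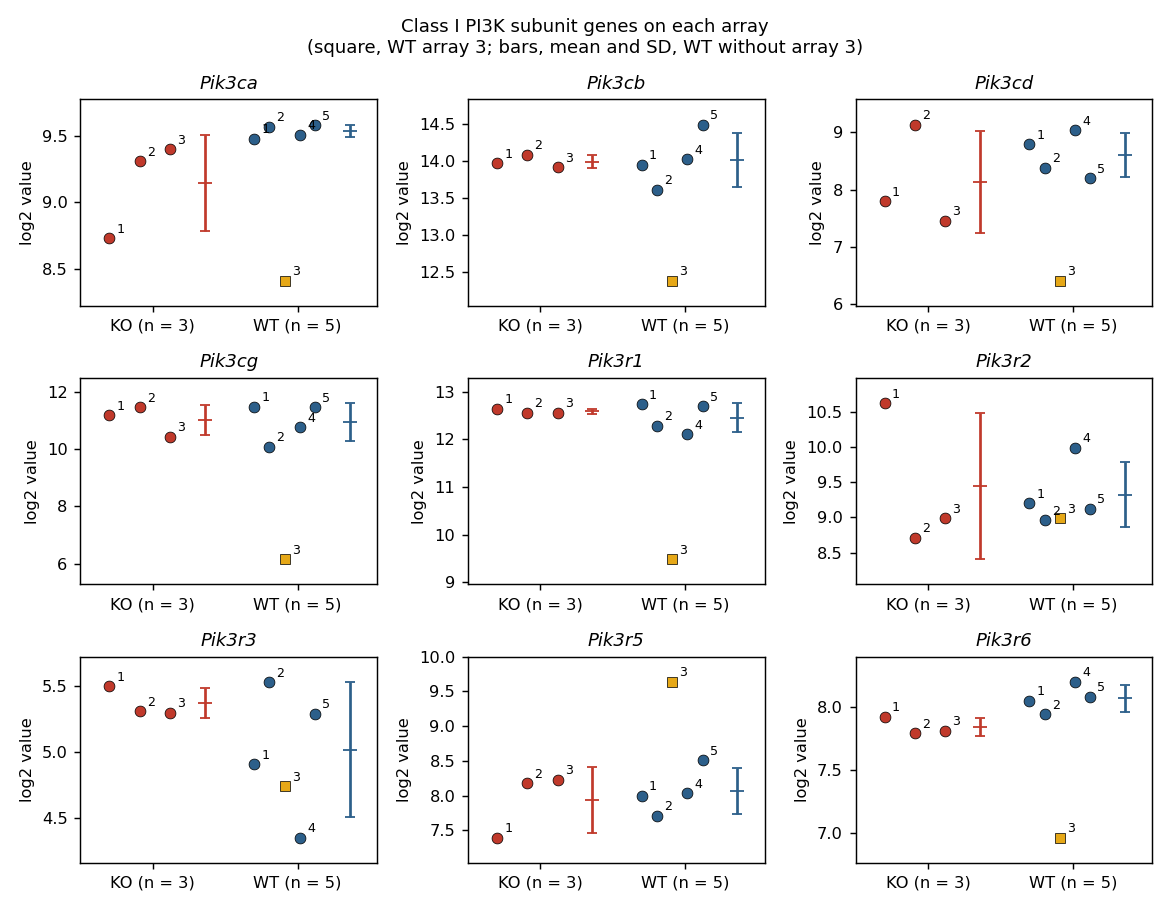
Log2 value (vertical axis) of each class I PI3K subunit gene on the KO and WT arrays, with points numbered by replicate, WT array 3 as a square, and bars for the mean and SD of KO and of WT without array 3. WT array 3 is the lowest WT array for 6 of the 9 genes and the highest for 1, Pik3r5.

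Pik3cb, the other broadly made catalytic gene, was bright and close together on 7 arrays. It was 13.97, 14.08 and 13.91 on the KO arrays and 13.95, 13.61, 12.38, 14.02 and 14.49 on WT arrays 1 to 5. All KO arrays lay inside the WT range. Without WT array 3 the difference was -0.03 (SE 0.22, interval -0.54 to 0.49), which in folds runs from 0.689 to 1.40. It was 0.30 with all arrays, so its sign rested on WT array 3. The exact permutation p was 0.857 without that array and 0.679 with it.

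The leukocyte catalytic genes varied more from array to array. Pik3cd was 7.80, 9.14 and 7.45 on the KO arrays and 8.79, 8.38, 6.40, 9.04 and 8.20 on WT arrays 1 to 5. KO array 2 was the highest of all 8, and KO arrays 1 and 3 were below every WT array but array 3. Its difference was -0.48 (SE 0.41, interval -1.41 to 0.46) without WT array 3 and -0.03 (SE 0.62) with it. Without KO array 2 as well as WT array 3 it was -0.98, and without KO array 3 as well as WT array 3 it was -0.14. Pik3cg was 11.18, 11.46 and 10.44 on the KO arrays and 11.48, 10.08, 6.15, 10.77 and 11.46 on WT arrays 1 to 5. KO and WT overlapped with or without WT array 3, the one array far below the rest. The Pik3cg difference of 1.04 (SE 1.11) with all arrays became 0.08 (SE 0.39, interval -0.83 to 0.99) without that array. Exact permutation p without WT array 3 was 0.371 for Pik3cd and 0.886 for Pik3cg.

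Among the regulatory genes of the p85 kind, Pik3r1, which encodes p85-alpha and shorter products, was steady apart from WT array 3. It was 12.64, 12.56 and 12.56 on the KO arrays and 12.73, 12.28, 9.48, 12.11 and 12.69 on WT arrays 1 to 5. The KO arrays fell within the WT range, with an SD of 0.04 (n = 3). The difference was 0.13 (SE 0.20, interval -0.33 to 0.60) without WT array 3 and 0.73 (SE 0.68) with it. Pik3r2, encoding p85-beta, was 10.62, 8.71 and 8.99 on the KO arrays and 9.20, 8.96, 8.99, 9.99 and 9.12 on WT arrays 1 to 5. KO array 1 and WT array 4 were high and the other 6 arrays lay between 8.71 and 9.20. KO array 1 was thus the lowest KO array for Pik3ca and the highest for Pik3r2. The Pik3r2 difference was 0.19 (SE 0.44) with all arrays and 0.12 (SE 0.47, interval -0.96 to 1.20) without WT array 3. It was -0.41 without KO array 1 and 0.55 without KO array 2. Pik3r3, encoding p55-gamma, was dim, at 5.50, 5.31 and 5.30 on the KO arrays and 4.91, 5.53, 4.74, 4.35 and 5.29 on WT arrays 1 to 5. It was above the median of all rows of its array, control rows included, on 3 of 8 arrays. Those medians lay between 5.26 and 5.51. Its difference was 0.35 (SE 0.28, interval -0.30 to 1.0) without WT array 3 and 0.41 (SE 0.28) with it. The exact permutation p without WT array 3 was 0.457 for Pik3r1, 0.800 for Pik3r2 and 0.343 for Pik3r3.

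The adaptors of p110-gamma, which lie next to each other in the genome, departed in opposite ways on WT array 3. Pik3r5, encoding p101, was 7.39, 8.18 and 8.23 on the KO arrays and 8.0, 7.71, 9.64, 8.03 and 8.51 on WT arrays 1 to 5. WT array 3 was its highest array and KO array 1 its lowest. Its difference was -0.13 (SE 0.28, interval -0.76 to 0.51) without WT array 3 and -0.44 (SE 0.44) with it, with exact permutation p of 0.686 and 0.464. Pik3r6, encoding p84, was 7.92, 7.79 and 7.81 on the KO arrays and 8.05, 7.94, 6.96, 8.20 and 8.08 on WT arrays 1 to 5. All 3 KO arrays lay below all WT arrays other than array 3. The difference without that array was -0.23 (SE 0.15, interval -0.58 to 0.12), or 0.853 times WT, with an exact permutation p of 0.0571 and a limma adjusted p of 0.989. With all arrays it was -0.01 (SE 0.30). Pik3r6 had the smallest spread of the 9 genes within groups over the 7 arrays, 0.09, which was at the 2.42nd percentile of all tested genes.

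None of the 9 genes passed the test between KO and WT. With all 8 arrays, 5 differences were above 0 and 4 below, with a median of 0.19 beside 0.04 over all 9920 tested genes. Without WT array 3, 4 were above 0 and 5 below, with a median of -0.03 beside 0.0002 over all genes. Limma with Benjamini-Hochberg adjustment called 0% of all tested genes, whether WT array 3 was used or not. At an unadjusted p under 0.05, limma had 282 genes (2.84%) over the 8 arrays, 464 (4.68%) once WT array 3 was dropped, and 0 of the 9 subunit genes in either. With all arrays, KO lay wholly below WT for 1.51% of tested genes and wholly above for 1.58%, and for 0 of the 9. Without WT array 3, KO lay wholly below WT for 2.93% of tested genes and wholly above for 2.62%. Of the 9 subunit genes, 2 were wholly below, Pik3ca and Pik3r6, and 0 wholly above. After quantile normalization without WT array 3, KO lay wholly below WT for 2.73% of tested genes. Pik3ca stayed below, at 8.80 to 9.42 in KO against 9.45 to 9.64 in WT. Pik3r6 then overlapped, at 7.73 to 7.98 against 7.95 to 8.20, but it did not after median centring, at 7.80 to 7.91 against 7.97 to 8.22. On the centred values, KO lay wholly below WT without array 3 for 3.54% of tested genes. The intervals without WT array 3 were wide for some genes: in folds of KO over WT they ran from 0.376 to 1.38 for Pik3cd, from 0.564 to 1.98 for Pik3cg and from 0.514 to 2.29 for Pik3r2. They were narrower for Pik3r1, from 0.795 to 1.51, and for Pik3r6, from 0.670 to 1.09.

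**Figure D2:**
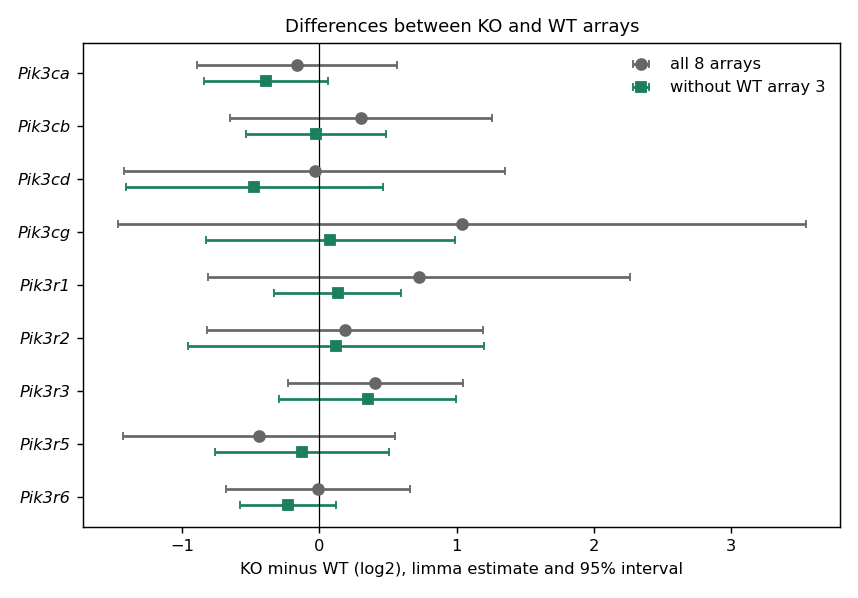
KO minus WT difference (log2, horizontal axis) of each gene with its 95% interval from limma, for all 8 arrays (circles) and without WT array 3 (squares). All intervals cross 0, and those of Pik3cg and Pik3r1 are the ones that shorten most when WT array 3 is left out.

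Array ranks show the same values without the log2 scale. The percentile of a row among all transcript rows of its array depends on its probes as well as on the transcript, so ranks were compared between arrays for 1 gene and not between genes. Pik3cb ranked between 94.1 and 96.6 on the 7 arrays other than WT array 3, and Pik3r1 between 88.0 and 90.7. Pik3cg ranked between 78.3 and 84.9 on those arrays, Pik3r2 between 70.7 and 81.1, and Pik3cd between 65.2 and 72.8. Pik3r5 ranked between 64.8 and 70.0, Pik3r6 between 66.3 and 68.6, and Pik3r3 between 34.5 and 53.4. Since control rows are left out of these ranks, their middle differs from the median of all rows used above for Pik3r3. By rank, Pik3ca was 71.5, 73.8 and 74.7 in KO and 74.8 to 75.8 in WT without array 3. There was again no overlap, by a narrow margin of 74.73 against 74.85. WT array 3 was at 71.8, above KO array 1, so by rank it was not the lowest array. The share of all tested genes without overlap was not counted on this scale. On this scale Pik3r6 overlapped, at 66.3 to 67.5 in KO and 67.4 to 68.6 in WT without array 3.

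**Figure D3:**
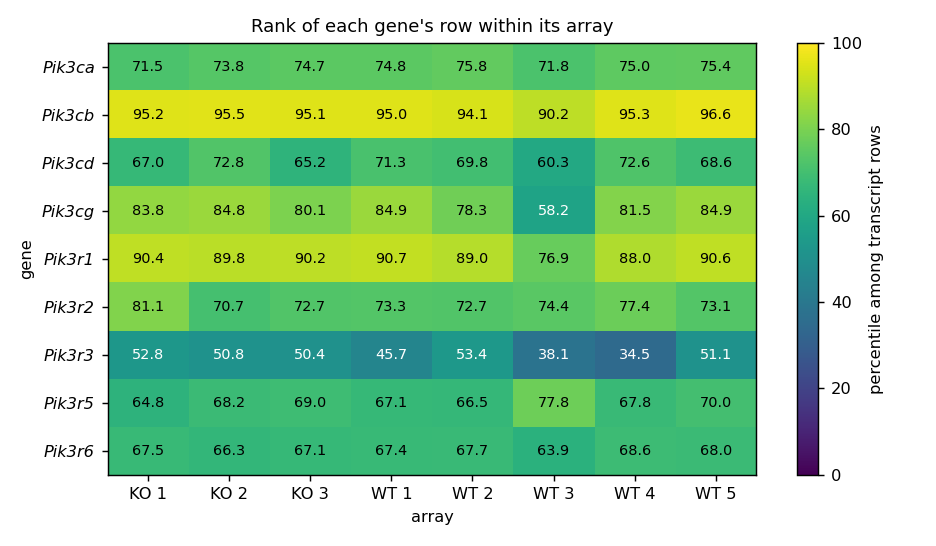
Percentile (colour and printed number) of each gene's row among the 22206 transcript rows of each array, with genes as rows and arrays as columns. On WT array 3, Pik3cg is at 58.2 and Pik3r1 at 76.9, below all other arrays, and Pik3r5 is at 77.8, above all other arrays.

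In log2 value, WT array 3 lay outside the range of the other 7 arrays for 7 of the 9 genes. It was below that range for Pik3ca, Pik3cb, Pik3cd, Pik3cg, Pik3r1 and Pik3r6, and above it for Pik3r5. The share of all tested genes outside that range was not counted, so the 7 of 9 cannot be set against it. Against the mean of the other 4 WT arrays, WT array 3 stood at -4.80 log2 units in Pik3cg, 27.8-fold lower. Of all tested genes, 0.242% stood as low or lower on that array. Pik3r1 stood at -2.97 (7.85-fold lower), at the 2.27th percentile, and Pik3cd at -2.21 (4.62-fold lower), at the 6.01st percentile. Pik3cb stood at -1.63 (3.11-fold lower), at the 11.1th percentile. Pik3ca stood at -1.13 (2.19-fold lower) and Pik3r6 at -1.11 (2.15-fold lower), at the 19.6th and 20.0th percentile. Pik3r2 and Pik3r3 stood at -0.33 and -0.28, near the middle of all genes. Pik3r5 was 1.58 higher, at the 96.9th percentile. WT array 3 was the lowest WT array for 42.2% of all tested genes and the highest for 30.2%, beside 6 and 1 of the 9 subunit genes. Over all tested genes, the median departure was -0.15, and 732 genes (7.38%) lay over 2 log2 units below, beside 3 of the 9. On that array the mean of the 3 erythroid markers was 5.59, against 4.44 to 4.47 on the other WT arrays and 4.50 to 4.72 on KO arrays. The mean of the 5 T and NK markers was 6.37, against 5.55 to 5.83 on the other WT arrays and 5.67 to 5.84 on KO arrays. The 5 B cell markers were at 5.33, against 4.66 to 5.11 on the other WT arrays and 4.67 to 4.95 on KO arrays. Many of these markers were dim, beside array medians of 5.26 to 5.51. Above the median on no array were Klf1 and Epor (erythroid), Cd3e and Cd3g (T and NK), and Cd79a, Ms4a1 and Pax5 (B cell). Of the 3 erythroid markers, 0 passed the filter. The 6 markers of maturing neutrophils averaged 15.93, against 15.02 to 15.34 on the other WT arrays and 14.65 to 15.97 on KO arrays, and the 10 GMP markers 15.20, against 14.94 to 15.27 and 14.88 to 15.05. The 6 mast cell and basophil markers averaged 5.91, below the 6.06 to 6.66 of the other WT arrays and the 6.08 to 6.50 of KO arrays. The 6 megakaryocyte and platelet markers averaged 6.77, inside the range of the other WT arrays. Whether other cell types had a part in the departure of the subunit genes was not tested. In bulk samples fewer cells of a type and less RNA per cell cannot be told apart.

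**Figure D4:**
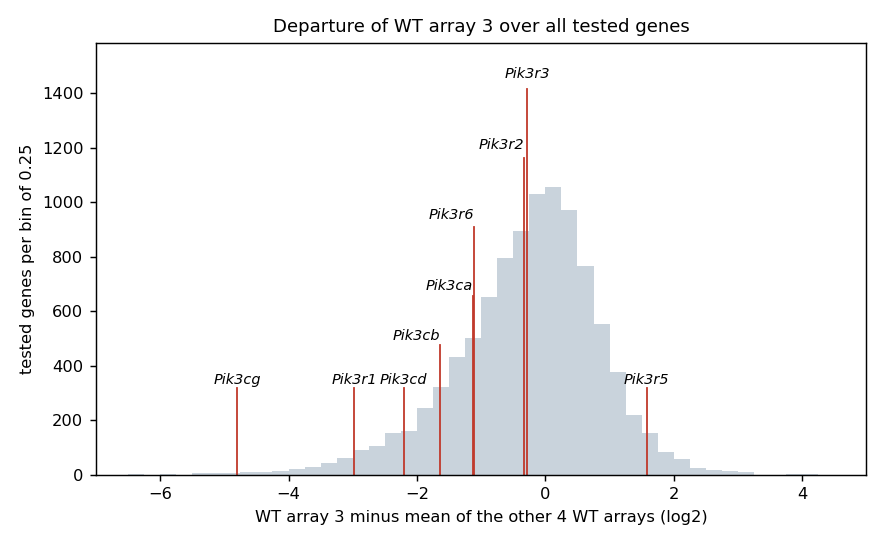
Number of tested genes (vertical axis) by WT array 3 minus the mean of the other 4 WT arrays (log2, horizontal axis), with each subunit gene marked by a line whose height has no meaning. Pik3cg at -4.80 and Pik3r1 at -2.97 lie far in the lower tail, and Pik3r5 at 1.58 lies in the upper tail.

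The sequences upstream of the start sites are shown for the targeted gene and for the 2 lowest subunit genes and the 1 raised subunit gene on WT array 3, Pik3cg, Pik3r1 and Pik3r5. They are the 250 bases before a RefSeq start (GRCm38.p6), written in the direction of transcription. Windows were found for 8 of the 9 genes, 14 in all, since some genes have several starts. Capitals mark GGGCGG, the GC box bound by Sp and KLF factors, or GAGGAAG, an ETS motif of the kind bound by PU.1, the myeloid master regulator, on either strand.
Pik3ca (GRCm38.p6 chr3:32396815-32397064, plus strand): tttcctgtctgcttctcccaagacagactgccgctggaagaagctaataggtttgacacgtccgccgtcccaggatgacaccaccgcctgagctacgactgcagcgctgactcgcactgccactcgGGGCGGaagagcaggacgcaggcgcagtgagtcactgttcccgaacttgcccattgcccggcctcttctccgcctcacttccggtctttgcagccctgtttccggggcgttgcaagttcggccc
Pik3cg (GRCm38.p6 chr12:32208660-32208909, minus strand): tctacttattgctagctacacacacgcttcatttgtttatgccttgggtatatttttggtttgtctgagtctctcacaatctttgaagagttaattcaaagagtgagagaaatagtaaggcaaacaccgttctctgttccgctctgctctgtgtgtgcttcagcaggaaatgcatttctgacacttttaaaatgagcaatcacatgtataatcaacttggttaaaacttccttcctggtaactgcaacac
Pik3cg second start, first match (GRCm38.p6 chr12:32208644-32208670, minus strand): aactgcaacaCTTCCTCtgcatctgga
Pik3cg second start, other match (GRCm38.p6 chr12:32208606-32208632, minus strand): ccccagaaaaGAGGAAGagacgaggtg
Pik3r1 (GRCm38.p6 chr13:101768218-101768467, minus strand): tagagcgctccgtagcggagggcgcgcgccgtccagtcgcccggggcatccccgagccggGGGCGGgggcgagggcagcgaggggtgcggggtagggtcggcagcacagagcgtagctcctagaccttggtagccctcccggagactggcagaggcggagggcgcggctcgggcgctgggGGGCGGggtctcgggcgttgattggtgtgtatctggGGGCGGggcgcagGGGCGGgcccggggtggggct
Pik3r5 (GRCm38.p6 chr11:68431875-68432124, plus strand): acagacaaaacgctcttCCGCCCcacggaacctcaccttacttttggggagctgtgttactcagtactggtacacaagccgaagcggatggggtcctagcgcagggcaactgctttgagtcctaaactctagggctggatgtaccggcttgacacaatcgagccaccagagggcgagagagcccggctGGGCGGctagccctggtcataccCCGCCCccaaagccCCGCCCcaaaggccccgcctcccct

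The printed windows differ in base composition. The Pik3cg window holds 38.8% G and C with 3 CpG pairs and no GC box, whereas the Pik3r1 window holds 76.4% with 30 CpG pairs and 4 GC boxes. The Pik3ca window (61.6%, 19 CpG pairs) and the Pik3r5 window (61.6%, 14 CpG pairs) hold 1 and 4 GC boxes. Over 32851 windows of the same length the median was 52.4% and 6 CpG pairs. GC boxes were in 10 of the 14 windows of the family and in 32.7% of all windows. GAGGAAG was in 2 of 14, at a second start of Pik3cg with 2 matches, from which 27 bases around each are shown, and at a start of Pik3r3. It was in 10.6% of all windows. The FoxO motif TGTTTAC was in 1 of 14, the same second start of Pik3cg, and in 3.2% of all windows. CCAAT was in 4 of 14 and in 33.8% of all windows. TGTGGT (RUNX), CACGTG (E-box) and TTGCNNAA (C/EBP) were in 0 of 14, and in 14.0%, 6.0% and 9.6% of all windows. Both strands were searched, no motif is part of another, and a match is only a match of letters. A second start of Pik3r1, not printed, has a window of 42.4% G and C with 6 CpG pairs and no GC box.

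The genes whose values followed Pik3ca most closely were sought over the 7 arrays without WT array 3. The 5 with the highest Pearson correlation were Mrtfb, a cofactor of serum response factor (0.98), Hint3, a nucleotide hydrolase gene (0.97), Rel, an NF-kB subunit gene (0.95), Cdkn1b, encoding the cell cycle inhibitor p27 (0.95), and Inpp4a, a phosphatase of PI(3,4)P2 (0.94). Their Spearman correlations were 0.75, 0.93, 0.50, 0.68 and 0.75. With WT array 3 the Pearson values were 0.99 for Mrtfb, -0.48 for Hint3, 0.51 for Rel, 0.92 for Cdkn1b and 0.95 for Inpp4a. These values describe 7 or 8 arrays, 36 of the tested genes exceeded 0.9 over the 7 arrays, and the 5 were picked as the highest. The other subunit genes were not among them. Over the 7 arrays their Pearson correlation with Pik3ca ran from -0.68 for Pik3r2 to 0.67 for Pik3r5. Spearman was -0.14 and 0.36 for those 2, and ran from -0.29 for Pik3r3 to 0.71 for Pik3r6. Among the 7 arrays Pik3ca was 8.73 on KO array 1 and 9.31 to 9.58 on the others, so all these Pearson values lean on KO array 1. Over all 8 arrays the Pearson values of Pik3cb, Pik3cd, Pik3cg, Pik3r1 and Pik3r6 were 0.73, 0.74, 0.70, 0.73 and 0.81, with WT array 3 low in all of them. Without WT array 3, Pik3cb was at 0.07 and Pik3cg at -0.23.

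Genes that act with class I PI3K were read from 7 lists of 87 genes, of which 66 were tested. In limma 0 of the 66 passed on 8 arrays and 0 on the 7 without WT array 3. At an unadjusted p under 0.05 there were 2 and 4 of them, beside 2.84% and 4.68% of all tested genes. For each list, the 3 genes of smallest unadjusted p are named, as values that did not pass, each with an adjusted p of 0.998 (limma). In brackets is the difference without WT array 3.

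Upstream, among the receptors of myeloid progenitors 4 of 11 were above 0 and 7 below, with a median of -0.15 (-0.22 without WT array 3). Il3ra, the interleukin-3 receptor alpha gene, had means of 10.8 ± 0.09 (SD, 3 KO arrays) against 11.7 ± 0.79 (SD, 5 WT arrays), and differed by -0.93 (-0.63), with WT array 3 at 12.9. Its KO arrays, at 10.71 to 10.89, lay below the WT range of 11.13 to 12.94, as for 1.51% of all tested genes. Kit, the stem cell factor receptor gene, differed by -0.30 (-0.25) and C5ar1, a complement receptor gene, by -0.24 (-0.28). Of 10 tested adaptors and other proteins that bind class I PI3K, 5 were above 0 and 5 below, with a median of -0.11 (-0.20 without WT array 3). Irs2, an adaptor of insulin-like receptors, had means of 13.4 ± 0.04 (SD, 3 KO arrays) against 13.7 ± 0.20 (SD, 5 WT arrays). Its KO arrays lay between 13.31 and 13.40, below the WT range of 13.50 to 13.96, as for 1.51% of all tested genes. It differed by -0.36 (-0.42), with an exact permutation p of 0.0357, and of 0.0571 without WT array 3. Crk, an adaptor gene, differed by 0.55 (0.49) and Cbl, a ubiquitin ligase gene, by -0.25 (-0.27).

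Among the activators of p110, Mras, a RAS-related gene, had means of 9.03 ± 0.29 (SD, 3 KO arrays) against 8.14 ± 0.69 (SD, 5 WT arrays). Its lowest KO array, at 8.82, was above its highest WT array, at 8.65, as for 1.58% of all tested genes. It differed by 0.89 (1.01), with an exact permutation p of 0.0357, and of 0.0571 without WT array 3. Rras differed by 0.24 (0.32) and Nras by 0.32 (-0.0029). Of 9 tested G protein beta and gamma subunit genes, which code for the dimers that activate p110-gamma, 4 were above 0 and 5 below, with a median of -0.02 (0.09 without WT array 3). Gng11 differed by 1.78 (1.68) with a standard error of 0.80, with KO arrays from 5.21 to 8.63 and WT arrays from 3.44 to 5.99, Gng2 by -0.79 (-0.54) and Gng7 by -0.43 (-0.32).

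Downstream, 11 of 17 tested genes for PIP3 effectors were above 0, with a median of 0.11, and 7 of 17 without WT array 3, with a median of -0.05. Akt1, encoding the AKT kinase, had means of 10.4 ± 0.71 (SD, 3 KO arrays) against 9.08 ± 1.47 (SD, 5 WT arrays), and differed by 1.31 (0.70), with WT array 3 at 6.62. Cyth3, an ARF exchange factor gene, differed by 1.51 (1.28) and Tec, a tyrosine kinase gene, by 0.63 (0.49). Of 7 tested phosphatases of PIP3 or PI(3,4)P2, 6 were below 0 both with and without WT array 3, with medians of -0.22 and -0.19. Synj1, a synaptojanin gene, differed by -0.40 (-0.24), Inpp5k by 0.30 (0.25) and Inpp5j by -0.42 (-0.19). WT array 3 was the highest WT array for Synj1, at 10.7, and for Inpp5j, at 10.3. The other PI3K classes and their partners had 5 of 6 tested genes above 0, with a median of 0.08 (0.04 without WT array 3). Pik3c2a, a class II PI3K gene, differed by 0.71 (0.09), with WT array 3 at 6.42 and the other WT arrays at 9.11 to 10.1. Pik3c3, the class III PI3K gene, differed by -0.28 (-0.37) and Becn1, its partner in autophagy, by 0.23 (0.21).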

How the data were processed

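Expression was measured on 8 arrays, 3 KO and 5 WT, grouped by genotype label, with replicate numbers from the titles. The authors deposited 1 table of 28846 rows, read as log2 from its values. Per the labels' protocols, RNA from a small-sample kit was biotin-labelled by the Affymetrix protocol. Software, normalization and build were not given in the sources used here. Symbols came from the platform annotation, and whether its array is the one named in the design text was not settled. All 9 gene identifiers matched a RefSeq gene table, and promoter sequences came from RefSeq (GRCm38.p6).

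Rows with 1 symbol were tested if they exceeded the array's median row on 3 or more arrays, 1 row per symbol (highest mean), which left 9920 genes. KO and WT were compared with limma 3.58.1 in R 4.3.3 (lmFit, eBayes, two-sided, Benjamini-Hochberg over all 9920 genes, threshold 0.05), without further normalization, and single genes by exact two-sided permutation. The code was tested on simulated data. Named genes were the 9 subunit genes, the 3 tested genes of smallest unadjusted p per pathway list, and the 5 most correlated with Pik3ca. The count and median of 1 pathway list are not reported here. The members and lists were chosen with earlier results of these data known. The alternatives were filters, quantile normalization, median centring, a floor, other eBayes settings, array weights, a replicate-number block, the row of largest variance, ranks and left-out arrays. Leaving out an array together with WT array 3, and normalizing without it, were chosen after seeing the data. Number of arrays limits the precision. Plots used Python 3.11.15 and matplotlib 3.10.9.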

Additional observations from a re-analysis of the deposited data

Results flagged for a closer look

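In the 5 WT arrays, each of the 9 subunit genes was searched for an array far from the others. The measure was the distance to the next array divided by the whole range. Of the 9 genes, 5 had such an array. Chance gives about 1 in 20 groups, and 16.8% of all tested genes had one by the same measure, 10.3% with WT array 3 as the low one. WT array 3 was the low array for 4 of the 5 genes. It was at 8.41 in Pik3ca (distance over range 0.917), at 6.15 in Pik3cg (0.738), at 9.48 in Pik3r1 (0.807) and at 6.96 in Pik3r6 (0.790). WT array 4 was the high array for Pik3r2, at 9.99 (0.770).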

How the results depend on the processing

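The number of genes passing was 0 in each of the 27 fits with smallest adjusted p between 0.124 and 1.0 (limma), and 0 members of any pathway list passed in the fits chosen at the start. Of 524 values under the 18 other settings chosen at the start, 504 counted as unchanged. A difference counted so if it kept its direction and its side of the limma threshold. An exact permutation p counted so if it did not fall under 0.05, whatever the direction of the difference. Counts of passing genes counted so by staying at 0, and list medians by staying within the spread of the arrays. Some settings could not move the difference of a subunit gene, so the 504 is no measure of robustness. These were the filters, the other eBayes settings and, with 1 row per subunit gene, the row of largest variance. The floor left the differences of the subunit genes unchanged as well. With 1 array left out, or WT array 3 and 1 other, Pik3ca ran from -0.52 to 0.042, Pik3cb from -0.16 to 0.50, Pik3cd from -0.98 to 0.31, Pik3cg from -0.21 to 1.41, Pik3r1 from 0.02 to 0.95, Pik3r2 from -0.47 to 0.55, Pik3r3 from 0.13 to 0.55, Pik3r5 from -0.61 to 0.15 and Pik3r6 from -0.27 to 0.079. The exact permutation p of Pik3ca ran from 0.0286, without WT array 3, to 1.0. It was also 0.0286 without WT array 3 after quantile normalization and after median centring, where Pik3cb was at -0.0094 and -0.055. With WT array 3 and 1 KO array left out it was 0.0667, the smallest that such a design can give, and with WT array 3 and 1 other WT array left out 0.10, likewise the smallest. With the replicate number as a block, Pik3cd was at 0.27 and Pik3r6 at 0.19, both turned in sign, Pik3ca moved to -0.0071, Pik3cb to 0.68, Pik3cg to 1.79 and Pik3r2 to 0.39, and 0 genes passed. Correlations of deviations from the group means were 0.02, -0.02 and 0.14 between KO and WT arrays of numbers 1 to 3. WT array 3 enters the WT mean and thus all WT deviations, so these values cannot settle whether the numbers pair the arrays. Numbers 4 and 5 occur only among WT arrays, so with the block the difference compares KO arrays 1 to 3 with WT arrays 1 to 3. WT array 3 then weighs more than in the main fit. The cause of the other changes was not tested. Pik3r3, dim on most arrays, left the test under the stricter filter.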
